A study of Mus musculus with 2 samples.

Results

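Regulatory T cell genes were examined in single-cell RNA sequencing of mouse pancreatic tumours. The 8 genes were Foxp3, Ikzf2, Il2ra, Tnfrsf4, Tnfrsf18, Tnfrsf9, Icos and Il10, found by symbol among the 32285 genes counted in each library, and all 8 were present. The study compared tumours of KPPC mice, an engineered model of pancreatic cancer whose alleles the labels do not list, after vehicle or after takinib at 50 mg/kg. Takinib is a small-molecule inhibitor of the kinase TAK1, which acts upstream of NF-kappaB and AP-1 signalling. Mice of both groups were 6 weeks old and were treated for 14 days, and whole tumours were digested with collagenase and DNase without a sort. Each group is 1 library, the number of mice behind it is not given in the sources used here, and so no test between treatments was possible and no p-value is given. Intervals in square brackets are 95% intervals that cover counting error only and say nothing of the spread between animals.

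Regulatory T cells are CD4 T cells that restrain other lymphocytes. The transcription factor Foxp3 fixes their identity, and Ikzf2 encodes Helios, a zinc finger factor found in many of them. They carry the interleukin-2 receptor alpha chain (Il2ra) at high level, take up interleukin-2 through it and signal through STAT5. In tumours they often carry co-stimulatory receptors of the TNF receptor superfamily (Tnfrsf4, Tnfrsf18 and Tnfrsf9), which signal through TRAF adaptors to NF-kappaB, and the CD28 relative Icos. Il10 encodes an inhibitory cytokine that regulatory T cells and several myeloid cells can secrete. Apart from Foxp3, all of these genes are also used by other cells, activated conventional T cells among them.

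The libraries differed in ways that bear on these genes. After the same filters the vehicle library held 9872 cells (43879188 UMIs, median 3594.5 per cell) and the takinib library 26790 cells (131951305 UMIs, median 3049.5 per cell), where a UMI is 1 counted RNA molecule. The labelled tumour tissue held 1833 and 2148 epithelial-like cells, and the neutrophil-like class had 269 (vehicle) and 12148 (takinib). The median mitochondrial share was 8.68% in vehicle and 1.84% in takinib. T cells were taken as cells with at least 2 UMIs over Cd3e, Cd3d, Cd3g, Trac and Trbc2, which gave 340 vehicle cells (3.44% of kept cells [3.09, 3.82]) and 1280 takinib cells (4.78% [4.53, 5.04]). This gate did not pick the same kind of cell in both libraries. In takinib 1092 of the gated cells (85.3%) lay in the 1 cluster with T cell markers, called T-like, but in vehicle only 196 (57.6%) did. A further 84 gated vehicle cells (24.7%) were epithelial-like, 71 of them with Trbc2 as their only gate gene, against 58 in takinib. Results are therefore given for gated cells and, as a choice made after seeing these numbers, for gated cells of the T-like cluster, whose median depth was 1489.5 UMIs in vehicle and 2113.5 in takinib. The clusters were made without the 8 genes. Of the kept barcodes, 400 occurred in both libraries, beside 375.5 expected at random, and 1 barcode was shared among gated T cells.

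The genes lie on 4 chromosomes in GRCm38. Foxp3 spans chrX:7573644-7595245, Ikzf2 chr1:69531214-69687245 on the minus strand, Icos chr1:60977927-61000320, Il10 chr1:131019845-131024974 and Il2ra chr2:11642807-11693193. The 3 TNF receptor genes are on chromosome 4, Tnfrsf9 at chr4:150914562-150946102 and the neighbours Tnfrsf4 (chr4:156013843-156016612) and Tnfrsf18 (chr4:156026164-156028895) with 9551 bases between them. RefSeq promoter windows of 250 bases before an annotated start on GRCm38.p6 matched 5 of the 8 genes, with 7 windows in all. Of them, 4 are shown with matches to short patterns in capitals, written 5' to 3' on the plus strand:

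Foxp3, chrX:7580233-7580482: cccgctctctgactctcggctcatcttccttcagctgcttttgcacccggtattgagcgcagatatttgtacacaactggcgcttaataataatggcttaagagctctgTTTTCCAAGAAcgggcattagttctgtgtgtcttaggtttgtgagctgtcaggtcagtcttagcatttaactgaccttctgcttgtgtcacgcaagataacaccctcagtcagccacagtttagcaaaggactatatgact

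Il2ra, chr2:11642542-11642791: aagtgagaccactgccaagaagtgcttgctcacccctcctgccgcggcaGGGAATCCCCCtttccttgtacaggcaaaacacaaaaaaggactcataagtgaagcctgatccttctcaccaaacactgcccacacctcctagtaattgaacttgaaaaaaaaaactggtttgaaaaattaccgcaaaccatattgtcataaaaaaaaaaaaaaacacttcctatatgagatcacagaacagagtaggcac

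Tnfrsf18, chr4:156026072-156026321: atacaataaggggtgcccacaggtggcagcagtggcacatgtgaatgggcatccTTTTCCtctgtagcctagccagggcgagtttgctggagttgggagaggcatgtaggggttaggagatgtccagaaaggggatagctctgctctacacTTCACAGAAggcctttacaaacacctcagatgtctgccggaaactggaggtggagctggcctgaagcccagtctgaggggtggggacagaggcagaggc

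Tnfrsf9, chr4:150927749-150927998: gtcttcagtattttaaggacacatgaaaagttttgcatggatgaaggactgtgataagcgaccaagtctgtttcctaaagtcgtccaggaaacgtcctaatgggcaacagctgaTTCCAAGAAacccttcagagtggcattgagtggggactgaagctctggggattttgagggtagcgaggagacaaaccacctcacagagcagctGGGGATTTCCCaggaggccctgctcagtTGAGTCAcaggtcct

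The capitals mark 4 short patterns searched on both strands. They were a kappaB-type pattern, GGG and CC with any 5 bases between (present in 45.8% of 32851 windows of the same length), an AP-1-type TGANTCA (6.75%), a STAT-type TTCNNNGAA (7.02%) and an NFAT-type GGAAAA (20.4%). Tnfrsf9 held overlapping kappaB-type matches at positions -43 and -42 from its start, an AP-1-type match at -15 and a STAT-type match at -136. Il2ra held overlapping kappaB-type matches at -201 and -200, on opposite strands. In Foxp3 an NFAT-type match at -141 overlapped a STAT-type match at -139, and in Tnfrsf18 the same patterns lay apart, at -196 and -99. Neither of these windows held a kappaB-type or AP-1-type match. The Foxp3 and Tnfrsf9 windows shown lie inside the annotated gene spans, and the Tnfrsf18 window runs into its gene. The other Foxp3 window and the Tnfrsf4 window (chr4:156013445-156013694) held none of the 4 patterns, and the other Tnfrsf9 window held an NFAT-type match at -138. These are matches of letters in these windows only.

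The genes differed in how far they were counted outside T cells. Foxp3, Il2ra and Icos were highest in T-like cells in both libraries. All levels are CPM, UMIs scaled to the total of the class. In vehicle Foxp3 stood at 50.6 CPM [33.6, 73.2] in the 254 T-like cells, and the next class, endothelial-like cells, at 0.784 CPM. In takinib it stood at 12.5 CPM [9.38, 16.4] in 1450 T-like cells and at 2.42 CPM in B-like cells, the next class. Foxp3 UMIs were thus concentrated in T-like cells but not confined to them. Of 45 vehicle cells with a Foxp3 UMI, 20 passed the T cell gate and 21 had no gate UMI at all. Of 74 takinib cells with one, 38 passed and 31 had no gate UMI. With at least 2 Foxp3 UMIs, 3 of 4 vehicle cells and 12 of 13 takinib cells were in the gate. Icos was more restricted than Foxp3 in takinib, with gated T cells holding 87.3% of its UMIs, against 59.5% in vehicle.

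**Figure D1:**
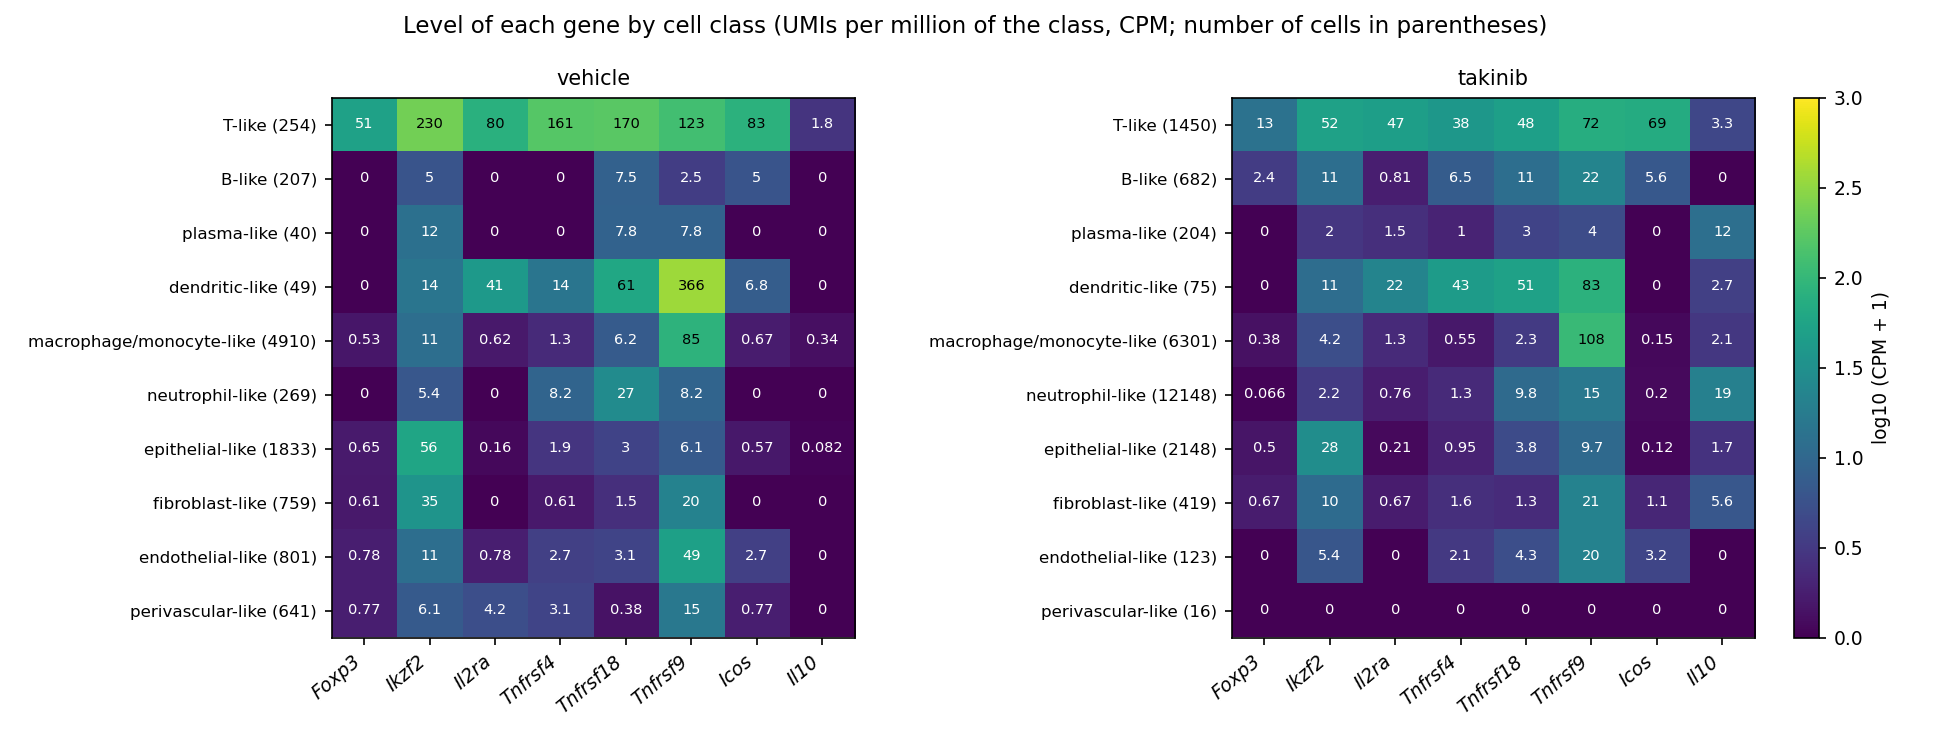
Level of the 8 genes in 10 cell classes of each library. Rows are classes with their number of cells, columns are genes, and colour is log10 of CPM plus 1 with the CPM printed in the cell. Foxp3 and Icos are high in the T-like row only, Tnfrsf9 is also high in dendritic-like and macrophage/monocyte-like cells, Ikzf2 in epithelial-like cells, and Il10 in takinib neutrophil-like cells. Perivascular-like cells number 16 in takinib, too few to read a 0 there.

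Il2ra was also present in vehicle dendritic-like cells, at 40.6 CPM [14.9, 88.5] beside 79.6 CPM [57.8, 107] in T-like cells, intervals that overlap. Ikzf2, Tnfrsf18, Tnfrsf9 and Il10 had most of their UMIs outside T-like cells. Ikzf2 was at 230 CPM in T-like cells of vehicle, but 692 of its 1230 UMIs came from epithelial-like cells (56.4 CPM), and in takinib 683 of 1325 did (28.2 CPM). For Tnfrsf9, macrophage/monocyte-like cells held 1783 of 2243 UMIs in vehicle and 4296 of 7594 in takinib, at 85.4 and 108 CPM. Dendritic-like cells, of which there were 49 and 75, were at 366 CPM [275, 477] and 83.3 CPM [56.6, 118] of Tnfrsf9. The same dendritic-like cells carried Tnfrsf18 at 61.0 and 51.1 CPM, beside 170 and 48.2 CPM in T-like cells. In takinib they carried Tnfrsf4 at 43.0 CPM [24.6, 69.8], beside 37.8 CPM [32.2, 44.1] in T-like cells, intervals that overlap. Of the Tnfrsf18 UMIs, T-like cells held 94 of 299 in vehicle and 204 of 832 in takinib. Macrophage/monocyte-like cells held 129 in vehicle, and neutrophil-like cells 297 in takinib. T-like cells still held 89 of 164 Tnfrsf4 UMIs in vehicle and 160 of 303 in takinib. Il10 was hardly a T cell gene here. Vehicle held 9 Il10 UMIs in 6 cells and takinib 913 in 474 cells, 0.205 and 6.92 CPM of all kept UMIs, a ratio of 33.7 [17.7, 74.0]. In takinib 581 of the 913 came from neutrophil-like cells (303 of 12148 cells) and 14 from T-like cells. No vehicle neutrophil-like cell of 269 held one, which allows a share of up to 1.12%.

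Among gated cells of the T-like cluster, the transcription factor genes were detected in a larger share of vehicle than of takinib cells. Foxp3 was found in 17 of 196 vehicle cells (8.67% [5.13, 13.5]) and in 28 of 1092 takinib cells (2.56% [1.71, 3.68]). Ikzf2 was found in 44 (22.4% [16.8, 28.9]) and 105 (9.62% [7.93, 11.5]). The intervals did not overlap for either gene, and the vehicle cells with the larger shares were the shallower ones. With each cell thinned to 1000 UMIs the shares were 5.10% and 1.28% for Foxp3, and 17.3% and 4.67% for Ikzf2. In cells without any gate UMI, which should lack Foxp3, it was found in 0.235% of 8949 vehicle cells (median 3571 UMIs) and 0.125% of 24857 takinib cells (median 3112 UMIs), far below the T-like cells. Ikzf2 has no such clean background, since among epithelial-like cells outside the gate 28.8% of 1749 (vehicle) and 24.0% of 2090 (takinib) held a UMI of it, at median depths of 4929 and 8933.5 UMIs.

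Over all gated cells the same genes gave 5.88% [3.63, 8.94] in vehicle and 2.97% [2.11, 4.05] in takinib for Foxp3, and 85 of 340 and 133 of 1280 cells for Ikzf2. The Foxp3 intervals overlapped there. As CPM, Foxp3 was 14.4 and 11.4 in gated cells but 50.1 and 14.8 in the T-like part of the gate. Gated vehicle cells carried epithelial marker RNA (8 markers) at 5897 CPM against 1410 in takinib, and in the T-like part at 240 against 145 CPM. The part of these markers in the Foxp3 level of the wider gate was not tested.

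**Figure D2:**
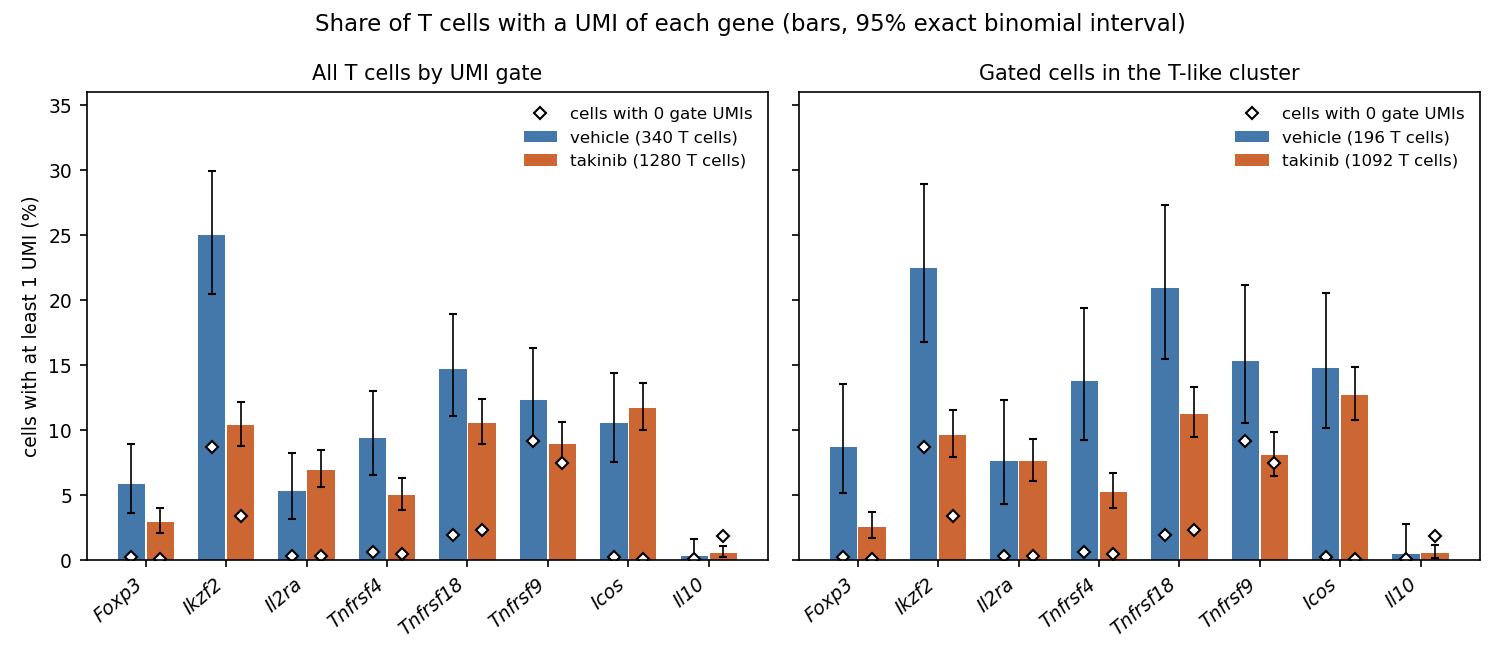
Share of T cells with at least 1 UMI of each gene, for all gated T cells (left) and for those of the T-like cluster (right), vehicle in blue and takinib in orange. Bars are shares in percent, error bars are 95% exact binomial intervals for counting error, and diamonds are the share in cells without a gate UMI. In the T-like panel Foxp3, Ikzf2, Tnfrsf4, Tnfrsf18 and Tnfrsf9 have vehicle and takinib intervals that do not overlap, with the takinib Tnfrsf9 bar close to its diamond, while those of Il2ra and Icos overlap.

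The receptors did not behave as 1 group. Tnfrsf4, the gene of OX40, was found in 27 of 196 vehicle cells of the T-like part (13.8% [9.28, 19.4]) and 57 of 1092 takinib cells (5.22% [3.98, 6.71]). Tnfrsf18, the gene of GITR, was found in 41 (20.9% [15.4, 27.3]) and 123 (11.3% [9.45, 13.3]). For both genes the intervals were apart, and cells without gate UMIs were at 0.648% and 0.487% for Tnfrsf4 and at 1.96% and 2.30% for Tnfrsf18. Il2ra was found in 15 vehicle cells (7.65% [4.35, 12.3]) and 83 takinib cells (7.60% [6.10, 9.34]), over a background of 0.324% and 0.314%. Icos was found in 29 (14.8% [10.1, 20.6]) and 139 cells (12.7% [10.8, 14.9]), over 0.246% and 0.105%. Both pairs of intervals overlapped, but the takinib cells were deeper, and thinned to 1000 UMIs the shares were 6.12% and 3.66% for Il2ra and 9.18% and 5.86% for Icos. Tnfrsf9 was found in 30 (15.3% [10.6, 21.1]) and 88 cells (8.06% [6.51, 9.83]), but cells without gate UMIs, many of them macrophage/monocyte-like cells that carry the gene, were at 9.20% and 7.47%. The takinib share over all T-like cells was thus near that of the other cells. Il10 was found in 1 of 196 vehicle cells (0.510%), over 0.0559% in vehicle cells without gate UMIs, and in 6 of 1092 takinib cells (0.549%), under the 1.84% of takinib cells without gate UMIs, and is not read further in T cells.

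Summed levels in the T-like part were lower in takinib by more than the counting interval for 5 of the 8 genes, Foxp3, Ikzf2, Tnfrsf4, Tnfrsf18 and Tnfrsf9. These intervals treat each UMI as a separate draw and leave out the spread between cells. For Tnfrsf4, 1 takinib cell held 26 of 151 UMIs, and for Ikzf2, 1 vehicle cell held 15 of 107. Tnfrsf18 was at 172 CPM in vehicle and 51.8 CPM in takinib (ratio 0.301 [0.229, 0.398]), and Tnfrsf4 at 148 and 45.5 CPM (ratio 0.307 [0.229, 0.415]). Ikzf2 was at 233 and 56.9 CPM (ratio 0.244 [0.192, 0.313]), and Foxp3 had a ratio of 0.295 [0.176, 0.507]. These 4 genes had log2 ratios of takinib to vehicle below -1 on the scale of CPM plus 10, from -1.86 for Ikzf2 to -1.28 for Foxp3. The size of 1 on this scale was used to call a gene. Of the 11217 genes with at least 10 UMIs, 2.18% were lower by that size and 3.58% higher, with a median of -0.05, and none of the 8 genes was higher. Il2ra (78.4 and 53.3 CPM, log2 ratio -0.48), Tnfrsf9 (115 and 71.1 CPM, -0.63) and Icos (85.0 and 81.9 CPM, -0.05) were not past it. In all gated cells 1 of the 8, Ikzf2 at -1.01, was lower by that size, where 5.94% of 13494 genes were lower and 3.28% higher, and Icos stood on the other side at 0.83 (26.1 and 54.1 CPM, ratio 2.08 [1.52, 2.89]). The median of the 8 log2 ratios was -0.95 in the T-like part and -0.07 in all gated cells.

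**Figure D3:**
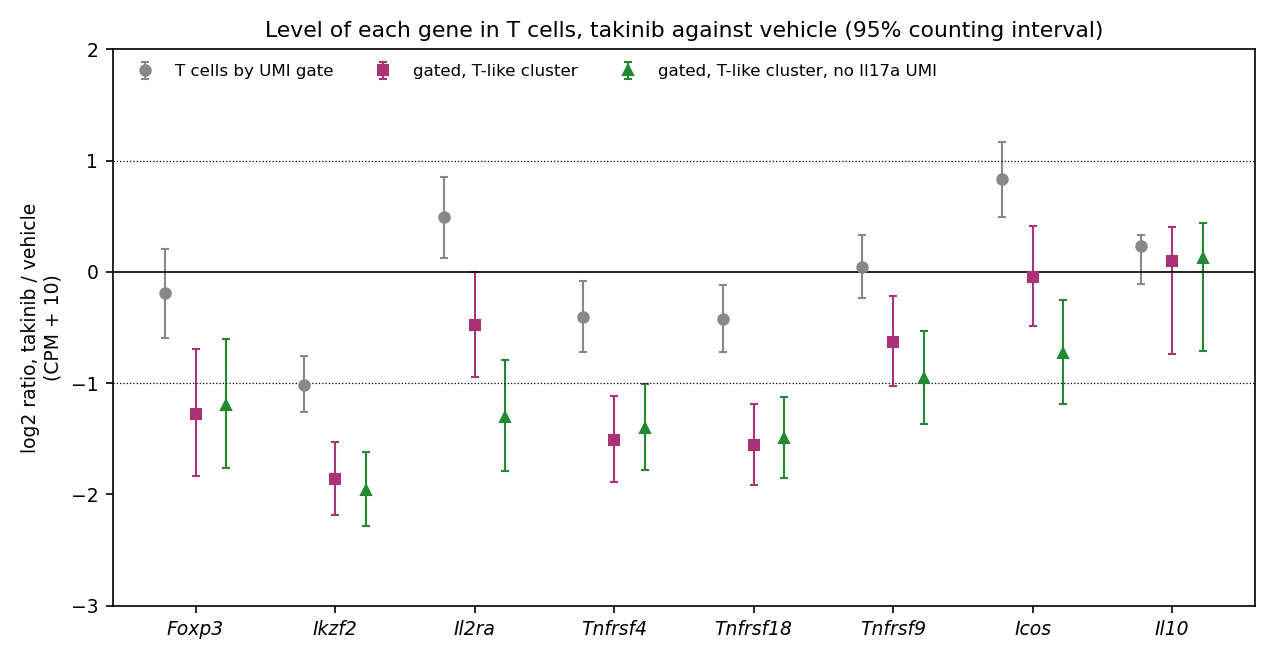
Log2 ratio of takinib to vehicle on the scale of CPM plus 10 for each gene, in gated T cells (grey circles), gated cells of the T-like cluster (purple squares) and the latter without Il17a-positive cells (green triangles). Error bars are 95% counting intervals and dotted lines mark a log2 ratio of 1 in either direction. Foxp3, Ikzf2, Tnfrsf4 and Tnfrsf18 lie below -1 in both T-like sets, and Il2ra and Icos move down when Il17a-positive cells are left out.

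Other features of the T-like cells differed between the libraries along with these genes. CD8 cells, with a Cd8a or Cd8b1 UMI and no Cd4 UMI, were 39 of 196 (19.9%) in vehicle and 454 of 1092 (41.6%) in takinib, while CD4 cells were 42 (21.4%) and 89 (8.15%). Foxp3 was found in 8 of 42 CD4 cells (19.0% [8.60, 34.1]) and 11 of 89 (12.4% [6.33, 21.0]), intervals that overlap. Among CD8 cells it was found in 0 of 39, which allows up to 7.69%, and in 1 of 454. With all cells that held a Cd8a or Cd8b1 UMI left out, the Foxp3 share was 10.9% [6.48, 16.9] of 156 vehicle cells and 4.28% [2.84, 6.16] of 631 takinib cells, and its log2 ratio was -1.05. Most of those cells held no Cd4 UMI either (114 and 542). Ikzf2 (-1.53), Tnfrsf18 (-1.38) and Tnfrsf4 (-1.23) also remained below -1 there. Over all gated cells without a Cd8a or Cd8b1 UMI none of these 4 was below -1, with Foxp3 at 0.08, Tnfrsf4 at -0.10, Tnfrsf18 at -0.19 and Ikzf2 at -0.68, and Icos was higher in takinib at 1.26. Among CD4 cells of the T-like part Icos was found in 31.0% and 31.5% (177 and 122 CPM), Tnfrsf18 in 33.3% and 32.6% (239 and 131 CPM) and Tnfrsf4 in 28.6% and 20.2% (248 and 270 CPM). Il2ra was found in 11.9% and 14.6% (97.5 and 94.5 CPM) and Tnfrsf9 in 19.0% and 19.1% (177 and 133 CPM). For these receptors shares and levels did not always order the libraries alike. Both were lower in takinib for Foxp3 (97.5 and 55.6 CPM) and Ikzf2 (31.0% and 20.2%, 364 and 150 CPM), with share intervals that overlap. The 42 vehicle cells leave wide intervals ([17.6, 47.1] for Icos and [19.6, 49.5] for Tnfrsf18). RNA of other cells also differed. The sum of 8 neutrophil markers was 671 CPM among vehicle T-like cells (Retnlg at 0) and 23594 CPM among those of takinib, where 92.9% of cells held at least 2 such UMIs, and the 10 macrophage markers to 6441 and 2682 CPM. Their part in the differences was not tested.

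Sex also differed between the libraries. Gated takinib T cells held no Y-linked UMI, while gated vehicle T cells included 116 with Y-linked and no Xist UMIs and 43 with Xist and no Y-linked UMIs, so cells of both sexes were present in vehicle. Foxp3 was found in 8 of the former (6.90% [3.02, 13.1]) and 1 of the latter (2.33% [0.0589, 12.3]). Measured against the 43 Xist-positive vehicle cells alone, the log2 ratio of Foxp3 turned to 0.67. No gene of the 8 was then lower by 1 or more, where 10.8% of 12795 genes were, and 4 were higher, where 7.03% were. Of those 4, Tnfrsf9 and Il2ra had no UMI in the 43 cells, Tnfrsf4 had 1 and Icos 5. In the T-like part, 21 such vehicle cells held 1 Foxp3-positive cell, and takinib had Foxp3 in 23 of 603 Xist-positive cells (3.81% [2.43, 5.67]). Among Xist-positive cells the direction of the Foxp3 difference could not be read at this depth, and treatment and sex cannot be told apart for the male vehicle cells.

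A small group of takinib cells, singled out after its values were seen, held much of the Icos and Il2ra signal. Il17a, the gene of the inflammatory cytokine interleukin-17A, was found in 64 of 1092 takinib cells of the T-like part (5.86%, 1524 UMIs) and in 0 of 196 vehicle cells, which allows up to 1.53%. These cells also carried genes of gamma delta T cells, with Trdc in 76.6%, Cd163l1 in 79.7% and Blk in 56.3%, against 3.60%, 3.79% and 1.85% of the 1028 Il17a-negative cells. Icos was found in 45 of the 64 (70.3% [57.6, 81.1]) and in 9.14% [7.45, 11.1] of the Il17a-negative cells. Il2ra was found in 35 (54.7% [41.7, 67.2]) and in 4.67% [3.46, 6.14], and Tnfrsf9 in 24 (37.5%) and in 6.23%. Ikzf2 was also more frequent there, in 21 cells (32.8% [21.6, 45.7]) against 8.17% [6.57, 10.0]. The group thus held 47.4% of the Icos UMIs, 55.9% of the Il2ra UMIs and 30.1% of the Tnfrsf9 UMIs of takinib T-like cells, at a median depth of 3330 UMIs against 2049.5. Foxp3, Tnfrsf4 and Il10 were found in none of the 64, which allows up to 4.69% each.

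**Figure D4:**
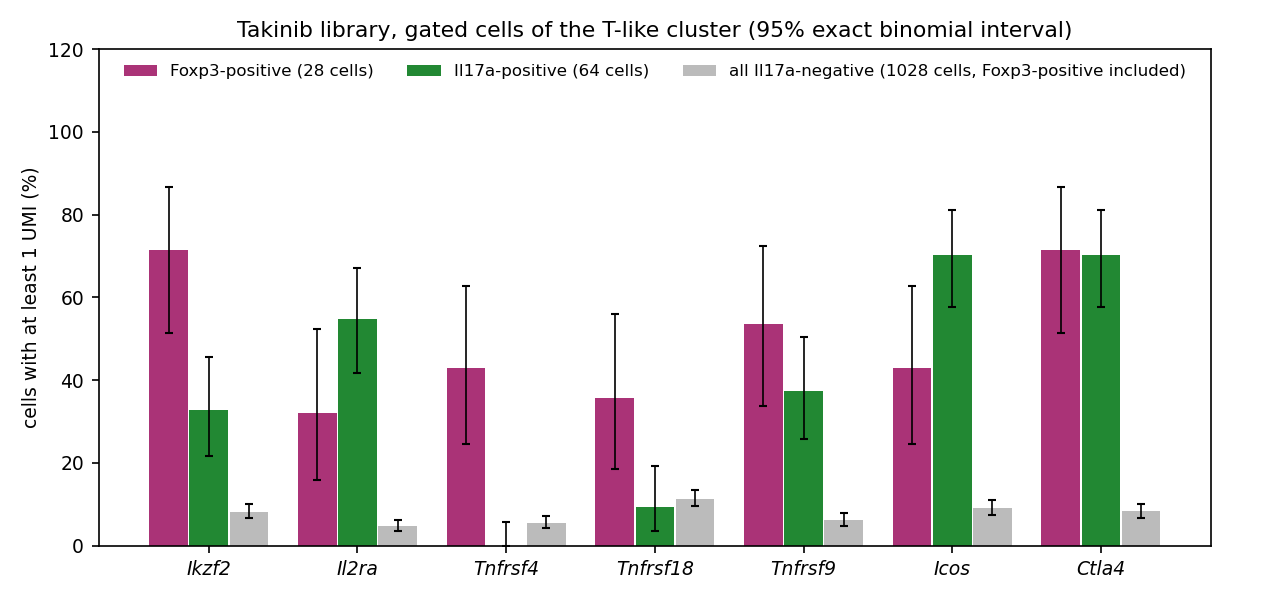
Share of takinib T-like cells with at least 1 UMI of each gene among 28 Foxp3-positive cells (purple), 64 Il17a-positive cells (green) and all 1028 Il17a-negative cells (grey, Foxp3-positive cells included), with 95% exact binomial intervals. Il17a-positive cells carry Icos, Il2ra and Ctla4 often but Tnfrsf4 in 0 cells, while Foxp3-positive cells carry Tnfrsf4 in 42.9%.

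Without the Il17a-positive cells the T-like comparison shifted for the receptors. Il2ra was then at 25.8 CPM in takinib, with a log2 ratio of -1.30, and Icos at 47.3 CPM, with -0.73. Tnfrsf9 stood at -0.96 and Foxp3 at -1.20. In all, 5 of the 8 genes were lower by at least 1, where 2.45% of 11042 genes were lower and 3.64% higher by that size. Removing these cells from takinib alone removes cells that carry Il2ra and Icos, so this comparison is a description of the remaining cells.

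In both libraries Foxp3-positive cells held more of the other genes than Foxp3-negative cells. In the T-like part, 111 vehicle cells (56.6%) and 747 takinib cells (68.4%) held none of the 8 genes. Foxp3-positive cells, 17 in vehicle and 28 in takinib, held a median of 3 and 2 of the other 7, and Foxp3-negative cells a median of 0 in both. At least 3 others were found in 11 of 17 Foxp3-positive (64.7%) and 17 of 179 Foxp3-negative vehicle cells (9.50%), and in 12 of 28 (42.9%) and 55 of 1064 (5.17%) in takinib. Foxp3-positive cells were also deeper, at median depths of 2082 against 1469 UMIs in vehicle and 2435.5 against 2112.5 in takinib. With each cell thinned to 1000 UMIs, 5 of 10 vehicle cells that still held a Foxp3 UMI had at least 3 others. That was 50.0% [18.7, 81.3], against 6.99% [3.77, 11.7] of the rest. In takinib 2 of 14 such cells did, 14.3% [1.78, 42.8] against 1.48% [0.851, 2.40], intervals that overlap. Most of the Foxp3-positive cells rested on a single Foxp3 UMI, 14 of 17 and 18 of 28.

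**Figure D5:**
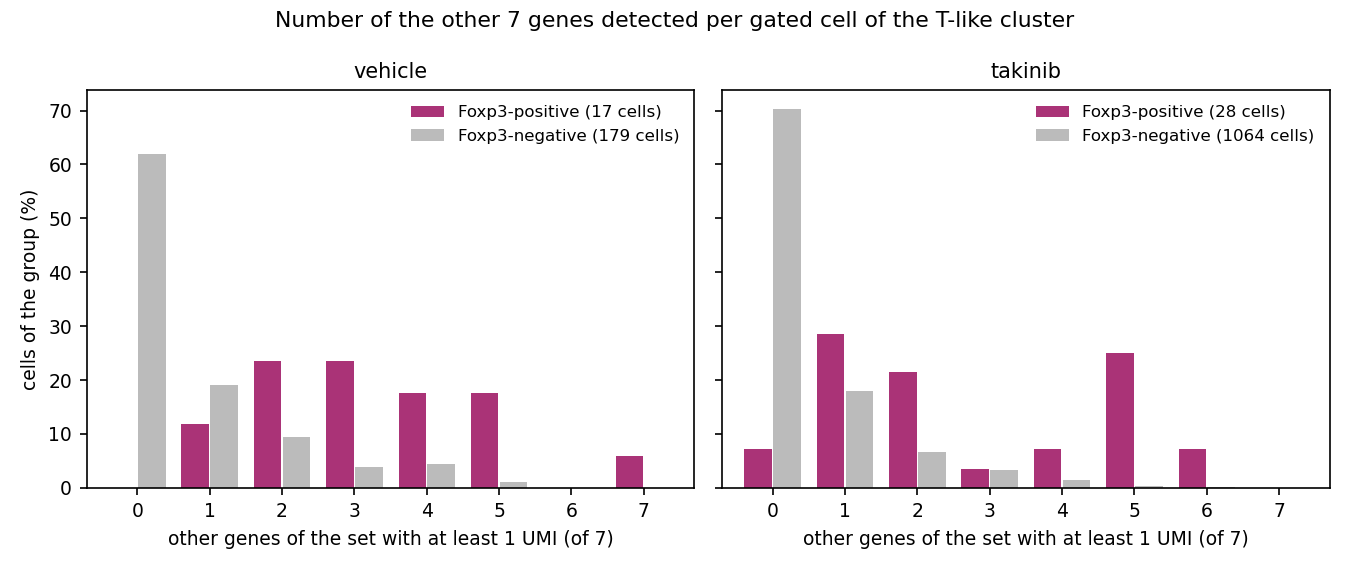
Number of the other 7 genes detected in each gated cell of the T-like cluster, as percent of the cells of a group, in vehicle (left) and takinib (right). Foxp3-positive cells (purple, 17 and 28 cells) spread from 0 to 7 other genes, while most Foxp3-negative cells (grey, 179 and 1064 cells) have 0.

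Single cells show the pattern directly. The vehicle cell with all 8 genes had 7338 UMIs, among them 3 of Foxp3, 15 of Ikzf2, 6 of Il2ra, 7 of Tnfrsf4, 8 of Tnfrsf18, 4 of Tnfrsf9, 2 of Icos and 1 of Il10. A takinib cell with 12163 UMIs held 6 of Foxp3, 18 of Ikzf2, 11 of Tnfrsf9 and 8 of Il2ra. Another, with 6474 UMIs, held 2 of Foxp3, 26 of Tnfrsf4 and 12 of Tnfrsf18. At the other end, 2 takinib Foxp3-positive cells, with 1023 and 1147 UMIs, held none of the other 7 genes.

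Ikzf2 was the most frequent partner of Foxp3. It was found in 15 of the 17 vehicle Foxp3-positive cells, where 3.82 would be expected if the genes were independent, and in 20 of 28 takinib cells, where 2.69 would. Tnfrsf9 came next, in 11 (2.60 expected) and 15 (2.26), and then Tnfrsf4, in 10 (2.34) and 12 (1.46). Tnfrsf18 was found in 10 of the Foxp3-positive cells in each library, against 3.56 and 3.15 expected. Il2ra was found in 4 (1.30) and 9 (2.13), and Icos in 5 (2.52) and 12 (3.56), so that in takinib Icos met Foxp3 in as many cells as Tnfrsf4 did. In takinib Il2ra and Icos met each other more often, in 49 cells against 10.6 expected, a set in which the Il17a-positive cells described above weigh heavily.

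Levels in Foxp3-positive cells were compared with those in Foxp3-negative cells of the T-like part. Ikzf2 was at 753 against 149 CPM in vehicle (log2 2.26) and 525 against 40.5 CPM in takinib (3.40). Tnfrsf4 was at 581 against 78.4 CPM (2.74) and 516 against 29.0 CPM (3.75). Il2ra differed by 2.97 and 1.95, Tnfrsf18 by 2.13 and 2.56, Tnfrsf9 by 1.45 and 2.81, and Icos by 0.40 and 1.09. Of the 6 genes with at least 20 UMIs, 5 were higher by at least 1 in vehicle, where 7.69% of 3276 genes were, and 6 in takinib, where 7.83% of 9326 genes were. Against CD4 Foxp3-negative cells only, 4 of 6 in vehicle (background 5.93%) and 5 of 6 in takinib (5.59%) were. Foxp3-positive cells held 13.9% of the UMIs of vehicle T-like cells but 61.1% of their Il2ra, 54.4% of their Tnfrsf4, 44.9% of their Ikzf2 and 43.0% of their Tnfrsf18 UMIs. In takinib they held 3.38% of all UMIs, 38.4% of Tnfrsf4, 31.2% of Ikzf2, 19.8% of Tnfrsf18, 13.6% of Il2ra and 7.35% of Icos UMIs.

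Within the T-like part the difference between the libraries was also present among Foxp3-negative cells. There Ikzf2 stood at 149 CPM (vehicle) and 40.5 CPM (takinib), a log2 ratio of -1.66, Tnfrsf18 at 114 and 43.0 CPM (-1.22) and Tnfrsf4 at 78.4 and 29.0 CPM (-1.18). Il2ra, at 0.35, and Icos, at -0.04, were not past 1. Over all gated Foxp3-negative cells only Ikzf2 was still lower (-1.03), Tnfrsf4 (-0.11) and Tnfrsf18 (-0.07) were near 0, and Il2ra was higher in takinib (1.05). A cell with no Foxp3 UMI at these depths may still express the gene.

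About as many of the other regulatory T cell genes were higher in Foxp3-positive cells as were not. Of the other listed regulatory T cell genes with enough UMIs, 6 of 13 were higher by at least 1 in Foxp3-positive vehicle cells and 13 of 26 in takinib, with none lower. Of all genes 7.69% and 7.83% were higher by that size. The list medians were 0.89 and 1.01 beside 0.09 over all genes. Those Foxp3-negative cells include CD8 cells. Against CD4 Foxp3-negative cells 1 of 10 was higher in vehicle, close to the 5.93% of all genes. In takinib 7 of 14 were, where 5.59% of all genes were. Ctla4, the gene of an inhibitory receptor that competes for CD80 and CD86, was the gene most like Foxp3 among those tested, a ranking that left out the 8 genes. It was at 345 against 55.7 CPM in vehicle and 472 against 81.4 CPM in takinib (log2 2.44 and 2.40). Gata3, a transcription factor also of type 2 lymphocytes, differed by 1.35 and 2.28, and Izumo1r, the gene of folate receptor 4, which is not among the 10 most like, by 0.54 and 2.52. Also among the 10 most like were Tox, a nuclear factor of stimulated T cells (1.26 and 1.65), the proliferation genes Top2a (1.38 and 1.74) and Mki67 (1.25 and 1.27), Lztfl1 (1.58 and 2.66), the peroxiredoxin gene Prdx4 (1.74 and 1.42) and the interferon-induced gene Ifi27l2a (1.31 and 1.34). The macrophage gene Mmp12 and the chemokine gene Ccl2 also ranked among them, but came from 5 and 2 (Mmp12) and 2 and 1 (Ccl2) Foxp3-positive cells. The 10 macrophage markers summed to 11737 CPM in the Foxp3-positive and 5588 CPM in the Foxp3-negative vehicle cells, and to 2198 and 2699 CPM in takinib.

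Genes of other T cell states were mostly lower in Foxp3-positive cells than in all Foxp3-negative cells. Of the listed helper and naive genes, 5 of 6 in vehicle and 8 of 13 in takinib were lower by at least 1 in Foxp3-positive cells (medians -2.45 and -1.18), among them Igfbp4 (-3.21 and -2.61, but 0.22 over all gated vehicle cells) and Lef1, a factor of naive T cells (-2.61 and -1.15). All 4 measured cytotoxic genes in vehicle and 8 of 9 in takinib were lower, such as the chemokine gene Ccl5 (-3.02 and -4.74). Here 9.74% of genes in vehicle and 8.44% in takinib were lower by that size. Against CD4 Foxp3-negative cells little of this was measurable or remained. Of the helper and naive genes 0 of 1 in vehicle and 2 of 7 in takinib were then lower, and of the cytotoxic genes none was measured in vehicle, while in takinib 2 of 3 were lower and 1 higher, where 4.38% and 5.59% of genes were lower and 5.59% in takinib higher. Ligands, receptor chains and signalling partners of the 8 genes showed less, with 1 of 12 higher in vehicle, and 1 higher and 2 lower of 24 in takinib. These counts were not above the shares of all genes by more than 1 gene (7.69% higher in vehicle, 7.83% higher and 8.44% lower in takinib).

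Between the libraries, T-like cells showed lower levels of several of these further regulatory T cell genes in takinib. Of 29 measured, 6 were lower by at least 1 and none higher, with a median of -0.42 beside -0.05 over all genes, of which 2.18% were lower and 3.58% higher. They were Cd81 (-1.66), Izumo1r (-1.46), Gata3 (-1.25), Itgae, an integrin chain of tissue T cells (-1.24), Ikzf4 (-1.17) and Klrg1 (-1.04). Ikzf4 rested on only 7 vehicle and 4 takinib UMIs, and Klrg1 on 12 and 25. Over all gated cells 4 of 30 were lower and 3 higher (Tnfrsf1b 1.49, Batf 1.47 and Ebi3 1.13), where 5.94% and 3.28% of all genes were, and of the 6 named genes only Cd81 (-1.48) stayed past -1. In the T-like part Ctla4 stood at -0.02, with 48.7% of its takinib UMIs in the Il17a-positive cells. Cytotoxic genes were higher in 4 of 10 cases (Ccl5 1.68, Gzma 1.37, Klrd1 1.26 and Cd8b1 1.01), beside the same 3.58% of all genes, and in 8 of 10 over all gated cells. Of the helper and naive genes 3 of 13 were higher and 0 lower in the T-like part. Over all gated cells 7 of 15 were higher and 1 lower, beside the 3.28% and 5.94% of all genes. None of the 24 measured ligands and partners passed 1 in either direction in the T-like part, the nearest being Il10rb, an interleukin-10 receptor chain, at 0.90, Tnfsf9, the ligand of the Tnfrsf9 receptor, at 0.84, and Traf1, a TRAF adaptor, at 0.77. Over all gated cells 1 of 25 did, Traf1 at 1.23.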

How the data were processed

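Each library was deposited as a matrix of UMI counts, not normalized, from Cell Ranger 4 (vehicle) and 6.1.1 (takinib) per the file headers. The submitters' processing notes instead name Cell Ranger 2.1.1, STAR 2.0.4b, featureCounts 1.45, Subread and bcl2fastq, with the build mm10, without their roles. The vehicle matrix listed 704261 barcodes and the takinib matrix 34158, none of the latter under 500 UMIs, so the same filters were applied to both (minimum 1000 UMIs and 500 genes, maximum 20% mitochondrial UMIs). Cells were clustered with scanpy 1.11.5 and igraph 0.11.9 (counts scaled to 10000, 2000 variable genes without the 8 genes described, 30 components, 15 neighbours, resolution 1, seed 1), giving 29 clusters in 12 named classes from 18 marker lists, T-like being 1 cluster. A name needed 3 markers in at least 10% of cells with a level of at least 0.2 of the highest cluster, and no second class at 0.75 of the best score. Scrublet marked 2.85% of vehicle and 0.00373% of takinib cells, so doublets were kept, and leaving out the 6% with the highest scores was an alternative.

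Counts were summed per library over T cells, scaled to CPM, and compared as log2 of CPM plus 10, which understates changes of low genes. A gene was called past 1 on that scale, among genes with at least 10 summed counts (20 in the split by Foxp3). Intervals are exact Poisson, Clopper-Pearson and exact conditional binomial, computed in Python 3.11.15 with numpy 2.4.6, scipy 1.17.1 and pandas 2.3.3, and a count of 0 allows 3 counts. The ratio step was tested on simulated data. Free RNA was not corrected. Genes were named from all 8, the list members with the 4 highest and 4 lowest ratios, any others behind a count given, and the 10 most like Foxp3 in the T-like part, that is, with the highest lower value over both libraries of the log2 ratio between Foxp3-positive and Foxp3-negative cells. The 8 genes and mitochondrial, ribosomal, haemoglobin and immunoglobulin genes were left out of that ranking. The 8 genes, the lists and the settings were chosen with earlier results of these data known. Restricting the gate to the T-like cluster and leaving out Il17a-positive cells were chosen after seeing the data. Alternatives were the gate, filters, pseudocount, scaling, thinning to 1000 UMIs, doublets, cells with markers of other types, cluster resolution 0.5, Xist-positive vehicle cells and CD4 cells as the reference.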

Additional observations from a re-analysis of the deposited data

How the results depend on the processing

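With 1 library per group no value has a replicate check. No paired analysis was possible because each group is 1 library and no test was run. Of 710 values under an alternative, 483 moved by less than their counting interval or count limit, and 227 moved further. A reversal was scored only for log2 ratios past 1 in all gated cells, that is for Ikzf2 (-1.01) alone, and Ikzf2 did not reverse. Uncalled values could still change sign, as Foxp3 did from -0.19 to 0.67 against Xist-positive vehicle cells. The gated T cells gave 1 of the 8 genes lower in takinib and 0 higher, with 801 genes lower and 442 higher over all, T cells at 3.44% and 4.78%, and a Foxp3 log2 ratio of -0.19. Scaling to a median of 0 left 0 of the 8 lower. A pseudocount of 1 gave 2 of the 8 higher (2174 genes lower and 1183 higher), and 50 gave 0 lower (188 and 156 genes). With a gate of 1 UMI, T cells were 9.35% and 7.22%, CD8 cells 7.26% and 30.6%, the vehicle Foxp3 share 2.60%, and of the 8 genes 0 were lower and 1 higher. With a gate of 3 UMIs, T cells were 2.14% and 3.63%. Cells of the T-like cluster (2.57% and 5.41%) gave a Foxp3 log2 ratio of -1.43, 4 of the 8 lower and 224 genes lower. Gated cells of that cluster (1.99% and 4.08%, vehicle CD8 share 19.9%) gave -1.28, 4 of the 8 and 245 genes lower, and without Il17a-positive cells (1.99% and 3.84%, CD8 share 19.9% and 44.0%) -1.20, 5 of the 8 and 271 genes lower. The other regulatory T cell genes higher in Foxp3-positive cells, 11 in vehicle and 12 in takinib among gated cells, were 6 in vehicle in that cluster, 1 and 5 against CD4 cells, and 1 and 7 against CD4 cells of the cluster. Without the 6% highest doublet scores, T cells were 4.49% in takinib and 0 of the 8 were lower. Without cells bearing markers of other types (0.972% and 2.42% T cells, vehicle CD8 share 19.8%), the Foxp3 log2 ratio was -0.87, with 2 of the 8 lower and 691 genes higher. Thinning to 1000 UMIs gave Foxp3 shares of 3.24% and 1.09%, a log2 ratio of -0.87, 2 of the 8 lower, 6 and 5 other regulatory T cell genes higher, and at least 3 other genes of the 8 in 14.3% of takinib Foxp3-positive cells. At 2000 UMIs and 1000 genes (2.49% and 4.20% T cells), and at most 10% mitochondrial UMIs (2.84% in vehicle), 0 of the 8 were lower and 1 higher. With Xist-positive vehicle cells alone (3.84% T cells, Foxp3 share 2.33%, 0% of Foxp3-positive cells with 3 others), the Foxp3 log2 ratio was 0.67, with 0 of the 8 lower, 4 higher, and 1378 genes lower and 899 higher. Cause was not tested for any of these moves. Depth limits Foxp3, as 14 of 17 and 18 of 28 positive T-like cells rest on 1 UMI.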
